A study of Mus musculus with 24 samples.

Results

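The genes described here encode the machinery of creatine cycling and calcium cycling, routes by which fat cells are thought to turn over ATP and release heat without uncoupling protein UCP1. There were 9 of them among the 37310 genes of the FPKM tables, chosen by symbol and matched to their Ensembl identifiers: the creatine transporter Slc6a8, the creatine synthesis enzymes Gatm and Gamt, the creatine kinases Ckb and Ckmt2, the phosphatase Alpl, the calcium pumps Atp2a2 and Atp2a1 and the calcium release channel Ryr2. Of these, 7 passed the filter on low values and were tested, and Ckmt2 and Ryr2 did not.

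The cells were stromal vascular fraction (SVF) cells of the inguinal depot (white adipose tissue, WAT) or the interscapular depot (brown adipose tissue, BAT), taken from C57BL/6 mice at 6 weeks of age and differentiated into adipocytes in culture. SVF is a mixed fraction that holds adipocyte precursors beside other cells of the tissue. All cells received an induction medium with insulin, dexamethasone and 3-isobutyl-methylxanthine until day 4 (D4), when the D4 groups were taken. The day 8 (D8) groups then received a medium with insulin and T3 until D8. Each group had either the green tea catechin EGCG (epigallocatechin gallate, dose not given) or DMSO, the control. Day and medium thus changed together, and their parts cannot be told apart. The 8 groups of depot, day and treatment had 3 libraries each, 24 in all, and the labels do not say whether the libraries of a group came from separate isolations, so the spread between them may be technical.

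In the creatine cycle, a kinase moves phosphate from ATP onto creatine and a phosphatase frees it again, so that ATP is consumed and mitochondria keep respiring. Cells take creatine up from outside or make it in a pair of steps from arginine, glycine and a methyl group. In calcium cycling, pumps of the sarco/endoplasmic reticulum (SERCA) use ATP to draw calcium into the store, and release channels let it leak back to the cytosol. Both routes have been described mainly in brown and beige fat, and the same proteins are best known from muscle, brain and bone.

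The depth was 39452696 to 52893848 gene-assigned reads per library in replicates 1 and 2, which stood in 1 table. It was 16392420 to 41675643 in replicate 3, which stood in another table. In both tables the values of each library were scaled to its own gene-assigned reads. Values are FPKM, reads corrected for gene length and library depth. Tests used replicates 1 and 2 (n = 2 per group, mean ± SD), and replicate 3 is given beside them as a level and a direction. Log2 changes are those of FPKM + 1 in limma, given ± SE, and called means an adjusted p below 0.05, while fold values are ratios of mean FPKM. In replicate 3 of EGCG-treated WAT D8 cells, 5 genes took 61.01% of the reads, so its values are printed after those genes were left out (multiplied by 2.5648). The change with EGCG in replicate 3 had the same direction as in replicates 1 and 2 in 25 of 28 pairs of member and arm after rescaling, and in 21 of 28 as deposited.

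Markers of several cell types moved with the treatment, and their values stand here beside every EGCG comparison that follows. All 6 mature adipocyte markers (Adipoq, Pparg, Fabp4, Plin1, Lipe and Cidec) fell with EGCG in each depot and on each day. Their summed FPKM was 1995 to 2621 in WAT D4 controls and 378 to 415 with EGCG, and 8171 to 8733 and 291 to 303 in BAT on D8. The summed Schwann cell markers (4 genes, with Sox10 present in all groups) had 21.5 to 22.8 FPKM in BAT D8 controls and 45.1 to 49.5 with EGCG. The endothelial sum (5 genes) had 15.4 to 16.4 and 31.0 to 34.0 in the same groups. Both sums were higher with EGCG in all 4 arms without overlap, but the Schwann cell markers did not all move together. Of these 4 genes, 3 were called higher and 1 lower in WAT on D8 and in BAT on both days. In WAT on D4, 2 were called higher and 0 lower. The shares of all tested genes called are given below. The macrophage sum (6 genes) was higher with EGCG on D4 and lower on D8 in both depots. Their part in the results was not tested, and in these bulk samples fewer cells of a type and less RNA per cell cannot be told apart. The depot labels were checked on Hoxc9 and Hoxc10, white depot markers, whose sum was at least 8.87 FPKM in every WAT group and at most 1.04 in every BAT group. The sum of the brown depot markers Ucp1, Zic1, Ebf2 and Lhx8 was higher in BAT than in WAT at each matched day and treatment, without overlap. Across days it did overlap, with 27.9 to 34.5 FPKM in WAT D4 controls and 30.6 to 41.7 in BAT D8 controls. Ucp1 itself reached 6.56 ± 0.579 FPKM in BAT D8 controls and at most 0.333 on average in the other groups.

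With EGCG, most of the tested members changed in every arm, as did much of the transcriptome. In WAT cells 6 of 7 tested members were called on D4 (4 higher, 2 lower), against 53.7% of all 14095 tested genes (34.4% higher, 19.3% lower). On D8 there were 4 of 7 (3 higher, 1 lower), against 63.6% (44.7% and 18.9%). In BAT cells 6 of 7 were called on D4 (4 higher, 2 lower), against 48.5% (27.9% and 20.6%), and 5 of 7 on D8 (3 higher, 2 lower, or 2 and 3 after median-ratio scaling), against 72.6% (46.5% and 26.1%). With 7 genes and backgrounds of this size the counts are not read as a result about the set, and each member is described on its own. The median log2 change over all tested genes with EGCG was 0.09 and 0.17 in WAT on D4 and D8 and 0.03 and 0.17 in BAT, and median-ratio scaling brought these to between -0.01 and 0.01. After that scaling the shares of all genes called higher and lower were 24.9% and 28.0% in WAT on D4, 28.6% and 28.0% in WAT on D8, and 35.6% and 34.2% in BAT on D8.

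**Figure D1:**
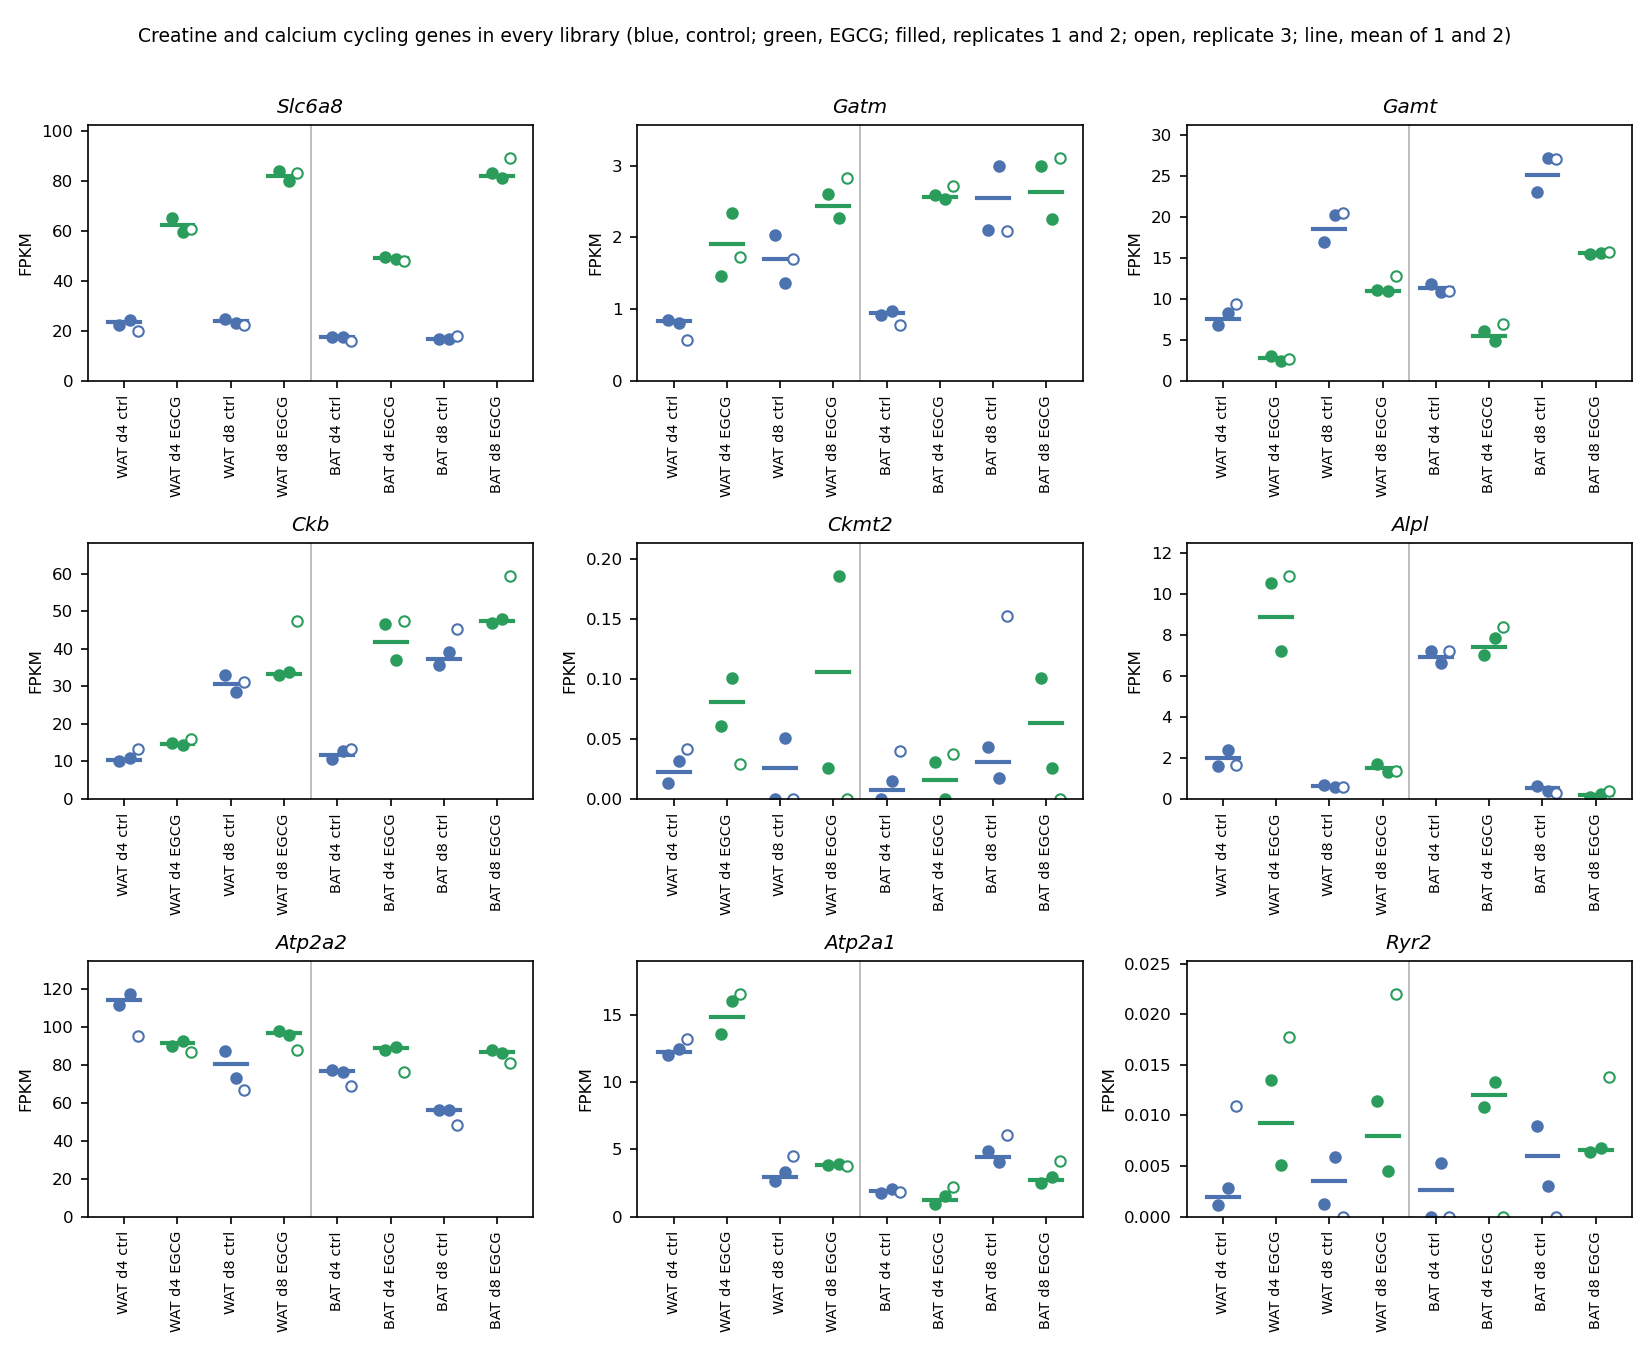
FPKM (linear axis, own scale per gene) of each of the 9 genes in the 8 groups, with filled points for replicates 1 and 2, open points for replicate 3 and a line at the mean of replicates 1 and 2, blue for control and green for EGCG. Slc6a8 is higher and Gamt lower with EGCG in each depot and on each day without overlap, while Ckmt2 and Ryr2 stay below 0.2 FPKM in every library.

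Slc6a8 (ENSMUSG00000019558.8, chromosome X, 70918489 to 70927841, plus strand of the genome build NCBIM37) encodes the plasma membrane transporter that takes up creatine, and of the 7 tested members it had the smallest adjusted p with EGCG in every arm. In WAT D4 cells the 3 control libraries (replicates 1, 2 and 3 in order, as in all lists of values below) had 22.4, 24.4 and 19.7 FPKM and the EGCG libraries 65.3, 59.6 and 60.9. WAT D8 cells had 24.5, 23.0 and 22.4 FPKM in controls and 83.9, 79.8 and 83.3 with EGCG. The transporter was thus 2.66-fold higher with EGCG on D4 (log2 change 1.38 ± 0.0534, adjusted p = 3.86e-09) and 3.44-fold higher on D8 (1.74 ± 0.0534, adjusted p = 2.93e-10) in WAT. Among BAT cells the D4 controls had 17.5, 17.5 and 15.7 FPKM and the D4 EGCG libraries 49.3, 48.9 and 47.8, a 2.81-fold rise (1.44 ± 0.0534, adjusted p = 5.49e-09). On D8 the BAT controls had 16.8, 16.6 and 17.9 FPKM and the EGCG libraries 83.0, 81.0 and 89.0, a 4.91-fold rise (2.23 ± 0.0534, adjusted p = 1.98e-11). No EGCG library overlapped a control library of its arm.

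The response of Slc6a8 grew with time. In controls its level was not called between D4 and D8 (log2 change 0.02, 95% interval -0.10 to 0.14, in WAT and -0.06, -0.18 to 0.06, in BAT, where a fit of both tables gave 0.16 with an adjusted p of 0.0183), whereas under EGCG it rose from D4 to D8 by 0.39 in WAT (adjusted p = 6.80e-05) and 0.73 in BAT (adjusted p = 3.79e-07). The EGCG effect on D8 exceeded that on D4 by 0.36 ± 0.0755 (adjusted p = 0.00199) in WAT and by 0.79 ± 0.0755 (adjusted p = 5.65e-06) in BAT. The first was 0.21 (adjusted p = 0.0547) in a fit of both tables without replicate 3 of EGCG-treated WAT D8 cells. Between depots, BAT controls held less Slc6a8 than WAT controls on D4 (1.34-fold lower, adjusted p = 7.49e-05) and on D8 (1.43-fold lower, adjusted p = 1.40e-05). With EGCG on D8 the depots stood at 81.8 ± 2.93 FPKM in WAT and 82.0 ± 1.39 in BAT, with overlapping libraries, and the EGCG effect was larger in BAT by 0.49 ± 0.0755 (adjusted p = 0.000401). In the order of the groups the 4 EGCG groups stood above the 4 control groups, and neighbours that overlapped were the D8 EGCG groups of the 2 depots, the 2 WAT control groups and the 2 BAT control groups.

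**Figure D2:**
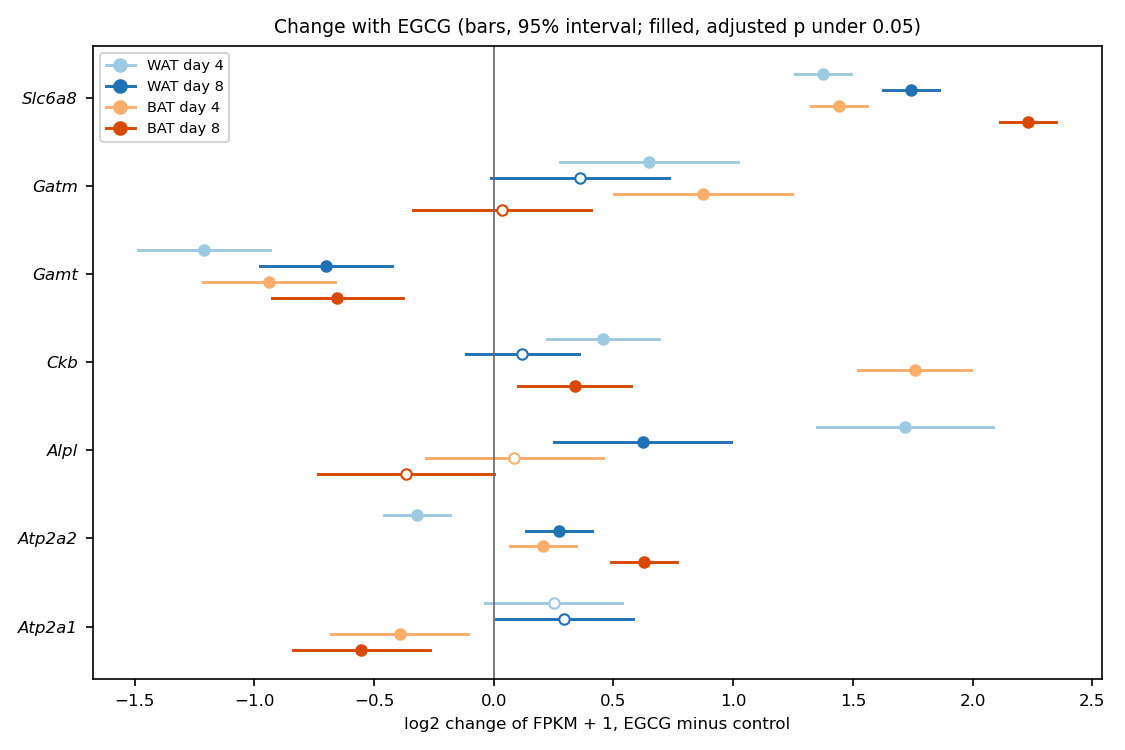
Log2 change of FPKM + 1 with EGCG against control (x axis) for the 7 tested genes, with 1 colour per depot and day, bars for 95% intervals and filled points for adjusted p under 0.05. Slc6a8 lies between 1.38 and 2.23 and Gamt between -1.21 and -0.65. Ckb and Alpl spread more widely between arms, and Atp2a2 runs from -0.32 to 0.63.

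Gamt (ENSMUSG00000020150.7, chromosome 10, 79720896 to 79723757, minus strand) encodes guanidinoacetate methyltransferase, which adds the methyl group in the last step of creatine synthesis. It fell with EGCG in all 4 arms. WAT D4 controls had 6.84, 8.31 and 9.32 FPKM and EGCG libraries 2.98, 2.43 and 2.63, 2.80-fold lower (log2 change -1.21 ± 0.125, adjusted p = 9.61e-06). WAT D8 controls had 16.9, 20.3 and 20.5 and EGCG libraries 11.1, 10.9 and 12.8, 1.69-fold lower (-0.70 ± 0.125, adjusted p = 0.000414). The transcript thus went down while that of the transporter went up. In BAT the D4 controls had 11.8, 10.8 and 10.96 FPKM and EGCG libraries 6.11, 4.78 and 6.92 (2.07-fold lower, -0.94 ± 0.125, adjusted p = 7.29e-05), and the D8 controls 23.0, 27.1 and 27.0 against 15.4, 15.6 and 15.7 (1.61-fold lower, -0.65 ± 0.125, adjusted p = 0.000530). All 3 EGCG libraries lay below all 3 controls in each arm.

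Gamt rose from D4 to D8 with and without EGCG, by 1.19 in WAT controls (adjusted p = 6.94e-06), 1.08 in BAT controls (adjusted p = 1.03e-05), 1.70 in WAT under EGCG (adjusted p = 4.33e-07) and 1.37 in BAT under EGCG (adjusted p = 2.54e-06). BAT cells held more of it than WAT cells in all 4 matched pairs of groups, from 1.35-fold in D8 controls to 2.01-fold on D4 with EGCG. On D8 the difference of the depots in controls was not called without WAT replicate 1 (adjusted p = 0.123) or BAT replicate 2 (adjusted p = 0.125), and that under EGCG not without any 1 of its 4 libraries (adjusted p 0.0502 to 0.0613). The loss with EGCG in WAT was smaller on D8 than on D4 (D8 minus D4 0.51 ± 0.177, adjusted p = 0.0332), and this was not called after median-ratio scaling (adjusted p = 0.0744), without the filter on low values (0.0678), or without any 1 of 5 libraries (WAT D4 control 2, WAT D4 EGCG 2, WAT D8 control 1, and WAT D8 EGCG 1 or 2, adjusted p 0.0684 to 0.126). Ordered by level, BAT D8 controls stood highest at 25.1 ± 2.93 FPKM and EGCG-treated WAT D4 cells lowest at 2.71 ± 0.390.

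Gatm (ENSMUSG00000027199.8, chromosome 2, 122420203 to 122437039, minus strand) encodes glycine amidinotransferase, the mitochondrial enzyme that makes guanidinoacetate in the first step of creatine synthesis. It was low everywhere, between 0.562 and 3.10 FPKM (22 to 336 reads per library). WAT D4 controls had 0.848, 0.810 and 0.562 FPKM and EGCG libraries 1.46, 2.34 and 1.73, a rise of 2.29-fold (log2 change 0.65 ± 0.170, adjusted p = 0.00699). Without EGCG replicate 2 of that arm the change was 0.43 with an adjusted p of 0.0776. BAT D4 controls had 0.916, 0.968 and 0.772 and EGCG libraries 2.59, 2.53 and 2.72, a rise of 2.72-fold (0.88 ± 0.170, adjusted p = 0.00115). On both D4 arms the libraries did not overlap.

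On D8 the change of Gatm was not called, at 0.36 in WAT (95% interval -0.01 to 0.73, adjusted p = 0.0841, and 0.0316 without WAT D8 control replicate 1) and 0.03 in BAT (-0.34 to 0.41). Libraries had 2.03, 1.37 and 1.69 against 2.61, 2.27 and 2.83 FPKM in WAT and 2.11, 3.00 and 2.08 against 3.00, 2.26 and 3.10 in BAT. In controls Gatm rose from D4 to D8, by 0.55 in WAT (adjusted p = 0.0146) and 0.86 in BAT (adjusted p = 0.000735), the first of which was lost after quantile normalization (0.42, adjusted p = 0.0508), without WAT D4 control replicate 2 (adjusted p = 0.0601) or WAT D8 control replicate 1 (adjusted p = 0.123). The EGCG effect in BAT was smaller on D8 than on D4 (D8 minus D4 -0.84 ± 0.240, adjusted p = 0.0108). In the order of the groups the first 6, from 2.63 ± 0.529 FPKM in BAT D8 EGCG cells to 1.70 ± 0.468 in WAT D8 controls, overlapped neighbour by neighbour, and the 2 groups of D4 controls stood below them.

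The 250 bases before the start of both synthesis genes are shown because their levels moved in opposite directions with EGCG on D4. They are RefSeq sequences of the build GRCm38.p6, which is not the build of the FPKM tables, with both genes on the minus strand and read 5′ to 3′. Capitals mark the short motifs found on either strand, out of 8 searched: the TATA box TATAAA, the CCAAT box, the GC box GGGCGG, the antioxidant response core TGACNNNGC, the nuclear receptor half-site AGGTCA, the E-box CACGTG, the C/EBP and ATF composite TGATGNAAT, and the hypoxia response core ACGTG, which lies within the E-box. The CCAAT box was searched as those letters, and a match is a description of letters only.
Gatm, chr2:122611278-122611527: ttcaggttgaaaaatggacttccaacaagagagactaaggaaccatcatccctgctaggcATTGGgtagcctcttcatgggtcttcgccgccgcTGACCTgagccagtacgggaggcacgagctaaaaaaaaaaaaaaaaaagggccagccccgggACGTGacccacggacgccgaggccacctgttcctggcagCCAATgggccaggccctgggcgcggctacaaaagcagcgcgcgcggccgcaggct
Gamt, chr10:80261013-80261262: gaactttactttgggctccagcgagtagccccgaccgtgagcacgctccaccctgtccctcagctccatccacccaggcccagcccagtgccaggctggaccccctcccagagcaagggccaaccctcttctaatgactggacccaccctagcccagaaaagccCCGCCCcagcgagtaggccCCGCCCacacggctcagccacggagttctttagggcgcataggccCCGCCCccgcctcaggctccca
Gatm held CCAAT in both orientations (33.8% of 32851 promoter windows of 250 bases hold this motif), the nuclear receptor half-site AGGTCA as its reverse complement TGACCT (14.0%), and the hypoxia response core ACGTG (16.6%). Gamt held the GC box GGGCGG as its reverse complement CCGCCC at 3 places (32.7% of windows hold 1 or more), beginning 86, 67 and 22 bases before the start, and no other of the motifs.

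Ckb (ENSMUSG00000001270.8, chromosome 12, 112907566 to 112910549, minus strand) encodes the cytosolic brain-type creatine kinase. It rose with EGCG in 3 of 4 arms and by far the most in BAT on D4, where controls had 10.6, 12.7 and 13.3 FPKM and EGCG libraries 46.6, 37.1 and 47.4. There it was 3.60-fold higher (log2 change 1.76 ± 0.107, adjusted p = 1.42e-07). WAT D4 controls had 9.99, 10.8 and 13.1 FPKM and EGCG libraries 14.8, 14.4 and 15.8, a rise of 1.41-fold (0.46 ± 0.107, adjusted p = 0.00379). The D4 effect was larger in BAT than in WAT by 1.30 ± 0.152 (adjusted p = 0.000108), and in BAT it was larger on D4 than on D8 (D8 minus D4 -1.42 ± 0.152, adjusted p = 1.30e-05).

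On D8 Ckb was high in all groups. BAT controls had 35.6, 39.2 and 45.3 FPKM and EGCG libraries 46.9, 48.0 and 59.4 (1.27-fold, 0.34 ± 0.107, adjusted p = 0.0137). This call was lost after median-ratio scaling (log2 change 0.14, adjusted p = 0.267), in a fit of both tables (0.14, adjusted p = 0.158), and without BAT D8 control replicate 1 (0.27, adjusted p = 0.0967) or EGCG replicate 2 (0.32, adjusted p = 0.0608). WAT D8 controls had 33.1, 28.3 and 31.1 FPKM and EGCG libraries 33.0, 33.8 and 47.4, which was not called (log2 change 0.12, 95% interval -0.12 to 0.36). In controls Ckb rose from D4 to D8, 2.96-fold in WAT (adjusted p = 3.33e-07) and 3.21-fold in BAT (adjusted p = 9.13e-08). EGCG-treated BAT cells on D4, at 41.8 ± 6.73 FPKM, overlapped the libraries of both BAT D8 groups, while all 3 WAT D8 controls lay below them. BAT exceeded WAT under EGCG by 2.86-fold on D4 (adjusted p = 1.02e-06) and 1.42-fold on D8 (adjusted p = 0.00368). On D8 the libraries overlapped, as WAT replicate 3, after rescaling, had 47.4 FPKM and BAT replicate 1 had 46.9.

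The 250 bases before the start of Ckb are shown because Ckb was the member with the largest rise from D4 to D8 in the controls of both depots and, with Gatm, one of a pair of members whose log2 levels moved together over the 16 tested libraries (Pearson r = 0.861, a description of points that share groups).
Ckb, chr12:111672339-111672588, minus strand: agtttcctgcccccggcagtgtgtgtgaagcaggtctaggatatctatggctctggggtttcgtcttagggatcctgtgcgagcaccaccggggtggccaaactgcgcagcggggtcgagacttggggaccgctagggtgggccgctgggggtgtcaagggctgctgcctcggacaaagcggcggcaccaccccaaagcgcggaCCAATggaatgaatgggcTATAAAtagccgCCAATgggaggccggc
In capitals are TATAAA (12.4% of windows), beginning 28 bases before the start, and CCAAT at 2 places in the forward orientation, beginning 46 and 16 bases before it. CCAAT is the motif of the 8 that this window shares with that of Gatm. This motif was in 33.8% of all windows and also in those of Ckmt2 and Atp2a1. The r of Ckb and Atp2a1 was -0.565.

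Ckmt2 (ENSMUSG00000021622.3, chromosome 13, 91992992 to 92016490, minus strand), which encodes the sarcomeric mitochondrial creatine kinase, was close to the limit of detection. Its reads ranged from 0 to 11 per library, 6 of 24 libraries had none, and 5 exceeded the floor of 3 reads, which is 0.0382 to 0.123 FPKM for this gene. Over 12 libraries each, EGCG-treated cells held 37 reads of 476065635 on genes and controls 17 of 422675333. At this depth neither a difference between groups nor a level could be read from it. The gene 1700119I11Rik, which overlaps it on the other strand, was listed at 0 in every library. The other kinases of the family belong to the wider list described further down, whose counts cover only its tested genes. Of these kinases Ckm, the muscle type, averaged at most 0.573 FPKM in a group.

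Alpl (ENSMUSG00000028766.4, chromosome 4, 137297648 to 137352299, minus strand) encodes tissue-nonspecific alkaline phosphatase, known from mineralising bone and described in thermogenic fat as a phosphatase of phosphocreatine. In BAT it was the member with the largest change over time. BAT D4 controls had 7.22, 6.64 and 7.22 FPKM and BAT D8 controls 0.631, 0.372 and 0.269, a 13.8-fold fall (log2 change -2.40 ± 0.168, adjusted p = 1.33e-07). WAT controls went from 1.60, 2.39 and 1.64 to 0.654, 0.573 and 0.550, a 3.25-fold fall (-0.88 ± 0.168, adjusted p = 0.000739). The fall was larger in BAT (difference -1.53 ± 0.238, adjusted p = 0.000491), and on D4 BAT controls held 3.48-fold more Alpl than WAT controls (adjusted p = 3.53e-05).

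With EGCG, Alpl rose in WAT cells and was not called in BAT cells. WAT D4 EGCG libraries had 10.6, 7.23 and 10.9 FPKM, 4.47-fold above the controls (log2 change 1.72 ± 0.168, adjusted p = 5.92e-06), and BAT D4 EGCG libraries 7.01, 7.83 and 8.39, which overlapped their controls (0.09, 95% interval -0.28 to 0.46). On D8 WAT cells with EGCG had 1.68, 1.29 and 1.37 FPKM (2.43-fold, 0.62 ± 0.168, adjusted p = 0.00660), a call that was lost without EGCG replicate 1 (0.51, adjusted p = 0.0583). BAT D8 cells with EGCG had 0.0931, 0.232 and 0.390, which was not called (-0.37, adjusted p = 0.0691) and went the other way in replicate 3. With a pseudocount of 0.1 this change was -1.21 (adjusted p = 0.00301) and after median-ratio scaling -0.41 (adjusted p = 0.0435). The EGCG effect in BAT minus that in WAT was -1.63 ± 0.238 (adjusted p = 0.000480) on D4 and -0.99 ± 0.238 (adjusted p = 0.00653) on D8. In WAT the effect on D8 minus that on D4 was -1.10 ± 0.238 (adjusted p = 0.00269), and this difference was not called with a pseudocount of 0.1 (adjusted p = 0.0817) or on recovered reads (0.155). Of the osteoblast markers, 4 could be matched, and none of them passed the filter on low values. Their summed FPKM was at most 1.13 in any library. A further marker of that list, the osteoblast transcription factor Runx2, matched 2 identifiers, of which one was listed at 0 in every library. The other (ENSMUSG00000039153.9) was higher with EGCG in all 4 arms without overlap, with 4.31 to 4.58 FPKM in controls and 6.48 to 7.23 with EGCG in WAT on D4, and with 1.92 to 2.22 in controls and 8.45 to 9.27 with EGCG in BAT on D8. Its part in the level of Alpl was not tested.

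Alpl has 2 starts in the RefSeq table, shown here because the levels of the gene spanned from 0.0931 to 10.9 FPKM and the FPKM does not tell from which start the RNA came.
Alpl, chr4:137796385-137796634, minus strand: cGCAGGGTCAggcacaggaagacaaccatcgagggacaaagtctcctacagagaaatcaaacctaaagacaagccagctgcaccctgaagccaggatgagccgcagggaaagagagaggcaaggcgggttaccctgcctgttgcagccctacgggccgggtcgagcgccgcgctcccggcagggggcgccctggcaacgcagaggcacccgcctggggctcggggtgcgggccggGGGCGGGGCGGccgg
Alpl, chr4:137766476-137766725, minus strand: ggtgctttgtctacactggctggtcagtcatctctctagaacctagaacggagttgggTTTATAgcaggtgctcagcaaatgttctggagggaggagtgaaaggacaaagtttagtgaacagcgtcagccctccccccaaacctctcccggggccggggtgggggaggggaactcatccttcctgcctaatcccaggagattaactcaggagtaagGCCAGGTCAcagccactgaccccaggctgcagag
The first window held GGGCGG at 2 places that overlap by 1 base and the antioxidant response core TGACNNNGC in reverse as GCAGGGTCA. The second held TATAAA in reverse, 192 bases before the start, and GCCAGGTCA, in which the antioxidant core and the half-site AGGTCA overlap, 34 bases before it. The antioxidant core was in 10.2% of all windows.

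**Figure D3:**
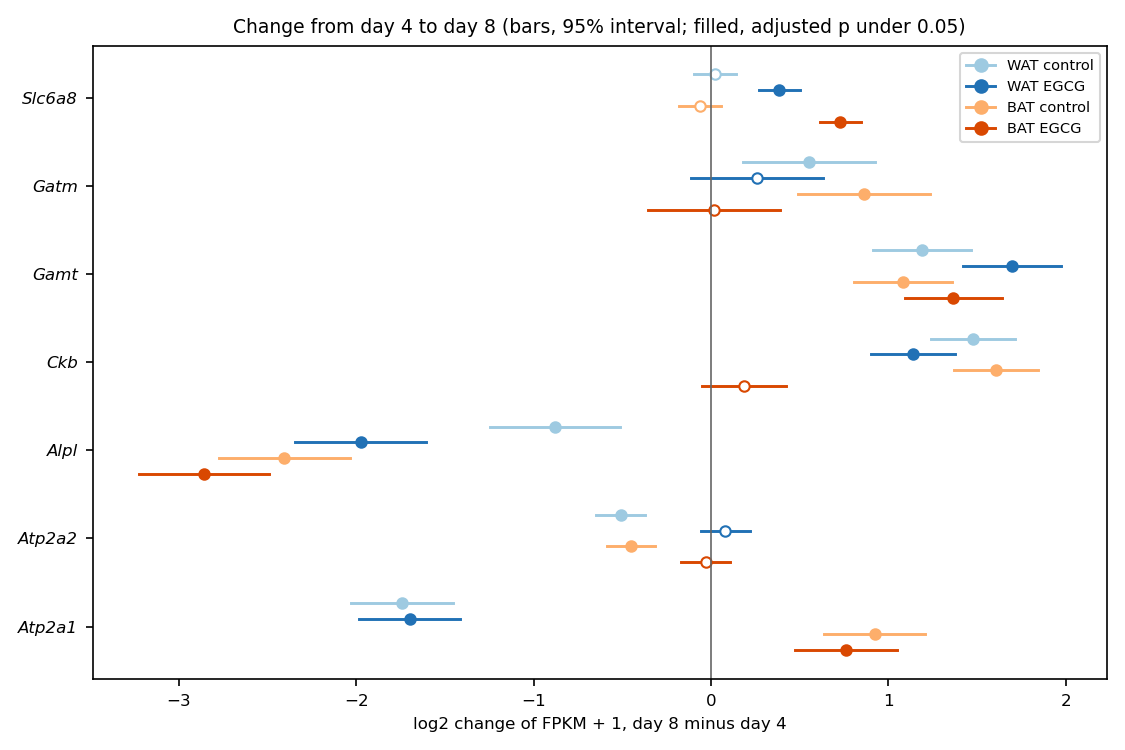
Log2 change of FPKM + 1 from D4 to D8 (x axis) for the 7 tested genes in the 4 combinations of depot and treatment, with bars for 95% intervals and filled points for adjusted p under 0.05. Gamt lies above 0 and Alpl below 0 in all 4, and Atp2a1 lies below 0 in WAT and above 0 in BAT.

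Atp2a2 (ENSMUSG00000029467.8, chromosome 5, 122903531 to 122952183, minus strand) encodes SERCA2, the calcium pump of most cell types. By the mean of replicates 1 and 2 it had the highest FPKM of the 9 genes in every group, and it ranged from 48.5 to 117 FPKM over all libraries. WAT D4 controls had 112, 117 and 95.4 FPKM and EGCG libraries 90.3, 92.7 and 86.8, 1.25-fold lower (log2 change -0.32 ± 0.0627, adjusted p = 0.00114). In the other 3 arms it was higher with EGCG. BAT D8 controls had 56.1, 56.1 and 48.5 FPKM and EGCG libraries 87.8, 86.3 and 81.1, 1.55-fold higher (0.63 ± 0.0627, adjusted p = 2.29e-06).

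The remaining arms gave smaller differences of Atp2a2. WAT D8 controls had 87.4, 73.4 and 66.9 FPKM and EGCG libraries 97.8, 95.96 and 88.2 (1.20-fold, 0.27 ± 0.0627, adjusted p = 0.00253), and BAT D4 controls 77.6, 76.4 and 69.2 against 88.1, 89.8 and 76.3 (1.16-fold, 0.21 ± 0.0627, adjusted p = 0.0177). The first was not called after median-ratio scaling (0.07, adjusted p = 0.396), after quantile normalization (0.14, adjusted p = 0.121) or in a fit of both tables (0.09, adjusted p = 0.111), and the last was lost when any 1 of its 4 libraries was left out (0.19 to 0.22, adjusted p 0.0531 to 0.0834). In controls Atp2a2 fell from D4 to D8, by 1.42-fold in WAT (adjusted p = 2.42e-05) and 1.37-fold in BAT (adjusted p = 4.80e-05). The EGCG effect was higher on D8 than on D4 by 0.59 ± 0.0887 (adjusted p = 0.000236) in WAT and 0.42 ± 0.0887 (adjusted p = 0.00180) in BAT. It was also higher in BAT than in WAT, by 0.53 ± 0.0887 (adjusted p = 0.00131) on D4 and 0.35 ± 0.0887 (adjusted p = 0.00806) on D8. BAT controls held less Atp2a2 than WAT controls on both days (1.49-fold lower on D4, adjusted p = 2.19e-05, and 1.43-fold lower on D8, adjusted p = 3.61e-05). The order ran from WAT D4 controls at 115 ± 4.12 FPKM to BAT D8 controls at 56.1 ± 0.00913, and over 3 libraries the last of these was the group that stood apart from its neighbour.

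Atp2a1 (ENSMUSG00000030730.6, chromosome 7, 133589372 to 133606622, minus strand) encodes SERCA1, the pump of fast skeletal muscle. It was highest in WAT D4 cells, with 12.05, 12.5 and 13.2 FPKM in controls and 13.6, 16.1 and 16.5 with EGCG, which was not called (log2 change 0.25, 95% interval -0.03 to 0.54), although on recovered reads it was (0.27, adjusted p = 0.0209). WAT D8 cells had 2.65, 3.30 and 4.49 in controls and 3.80, 3.91 and 3.75 with EGCG (0.29, 0.01 to 0.58), also not called, with an adjusted p of 0.0682 that fell to 0.0377 without WAT D8 control replicate 2, to 0.0457 on recovered reads and to 0.0402 with a replicate block. In WAT controls the gene fell 4.12-fold from D4 to D8 (adjusted p = 4.12e-07).

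BAT cells showed the opposite course of Atp2a1. Their D4 controls had 1.74, 2.02 and 1.81 FPKM and their D8 controls 4.84, 4.08 and 6.07, a 2.37-fold rise (adjusted p = 5.46e-05), and the day effect differed between depots by 2.66 ± 0.185 (adjusted p = 2.61e-06). With EGCG the BAT libraries had 0.924, 1.49 and 2.19 on D4 and 2.52, 2.91 and 4.17 on D8. The D4 change was -0.39 ± 0.130, adjusted p = 0.0265, but replicate 3 went the other way, and the call was lost in a fit of both tables (-0.23, adjusted p = 0.130), without the filter on low values (adjusted p = 0.0587), and without BAT D4 control replicate 2 (adjusted p = 0.146) or EGCG replicate 1 (adjusted p = 0.256). On D8 Atp2a1 fell 1.64-fold with EGCG (-0.55 ± 0.130, adjusted p = 0.00228), with 1 control library inside the range of the EGCG libraries. BAT D4 cells stood 6.52-fold below WAT D4 cells in controls (adjusted p = 2.47e-07) and 12.3-fold below with EGCG (adjusted p = 3.46e-08). The EGCG effect in BAT minus that in WAT was -0.85 ± 0.185 (adjusted p = 0.00368) on D8 and -0.64 ± 0.185 (adjusted p = 0.0231) on D4, where 4 alternative fits and 5 fits without 1 library did not call it (adjusted p 0.0516 to 0.0955).

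The levels of Atp2a1 moved with those of skeletal muscle markers across the libraries. Over 16 markers (the list of 17 without myoglobin, Mb, which brown adipocytes also express) the summed FPKM was 112 to 122 in WAT D4 controls, 188 to 194 with EGCG, 63.3 to 76.3 in WAT D8 controls and 68.5 to 77.3 with EGCG. For BAT it was 26.3 to 39.6 in D4 controls, 31.3 to 47.2 with EGCG, 88.0 to 105 in D8 controls and 60.9 to 85.3 with EGCG. Of these 16 markers 10 were tested, of which 9 fell from D4 to D8 in WAT controls and 10 rose in BAT controls, the directions seen for Atp2a1. Of all tested genes 33.2% were called lower in WAT controls and 28.7% higher in BAT controls. With EGCG 8 rose in WAT on D4, 2 rose and 2 fell in WAT on D8, none was called in BAT on D4, and 6 fell in BAT on D8. Of all tested genes 34.4% and 19.3% were called higher and lower in WAT on D4, and 44.7% and 18.9% on D8. In BAT the shares were 27.9% and 20.6% on D4 and 46.5% and 26.1% on D8. Under median-ratio scaling 7 markers rose in WAT on D4, 0 rose and 3 fell in WAT on D8, and 8 fell in BAT on D8. Of all tested genes 24.9% were then called higher in WAT on D4, 28.6% higher and 28.0% lower in WAT on D8, and 34.2% lower in BAT on D8. The part of muscle cells in the level of Atp2a1 was not tested. Rabep2, which overlaps Atp2a1 on the other strand, had 6.84 to 13.4 FPKM in every library, and strand use in the counting is not given in the sources used here.

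**Figure D4:**
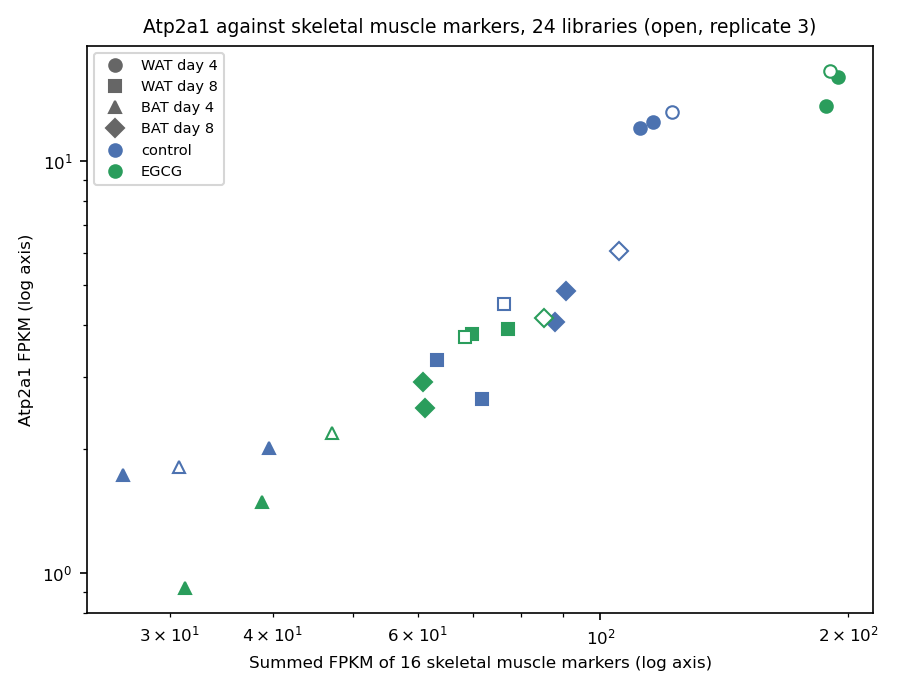
FPKM of Atp2a1 (y axis, log scale) against the summed FPKM of 16 skeletal muscle markers (x axis, log scale) in the 24 libraries, with shape for depot and day, colour for treatment and open points for replicate 3. The WAT D4 libraries lie at the upper right, at 12.05 FPKM of Atp2a1 or more, and the BAT D4 libraries at the lower left, at 2.19 or less.

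Ryr2 (ENSMUSG00000021313.8, chromosome 13, 11645370 to 12199212, minus strand), which encodes the calcium release channel of heart muscle and neurons, was at or near the limit of detection. Its reads ranged from 0 to 11 per library over a gene model of 16813 bases, the highest level was 0.0220 FPKM, and 5 of 24 libraries held no read. Controls held 24 reads in 12 libraries (of 422675333 on genes) and EGCG-treated cells 74 (of 476065635). The floor of 3 reads was exceeded in 13 libraries, 10 of the 12 with EGCG and 3 of the 12 controls, and the FPKM of control and EGCG libraries overlapped in all 4 arms. The gene did not pass the filter on low values, and no test was made.

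From D4 to D8, 6 of 7 tested members were called in WAT controls (3 higher, 3 lower), against 61.0% of all tested genes (27.7% higher, 33.2% lower), and 6 of 7 in BAT controls (4 higher, 2 lower), against 69.2% (28.7% and 40.4%, or 36.9% and 29.9% after median-ratio scaling). Ckb, Gatm and Gamt rose and Alpl and Atp2a2 fell in both depots. Under EGCG there were 5 of 7 in WAT (3 higher, 2 lower), against 59.5% (31.8% and 27.7%), and 4 of 7 in BAT (3 higher, 1 lower), against 58.0% (29.7% and 28.2%). Between depots, 5 of 7 were called on D4 in controls (2 higher in BAT, 3 lower), against 55.8% (41.4% and 14.4%, or 24.2% and 23.6% after median-ratio scaling), and 5 of 7 on D8 (3 higher, 2 lower), against 53.6% (31.6% and 22.0%). With EGCG 4 of 7 were called on D4 (2 higher, 2 lower), against 48.7% (32.9% and 15.8%, or 25.02% and 20.7% after median-ratio scaling), and 4 of 7 on D8 (2 higher, 2 lower), against 38.4% (24.4% and 14.0%). The median log2 change of all tested genes was 0.15 between depots in D4 controls and -0.10 from D4 to D8 in BAT controls, and median-ratio scaling brought these to 0.01 and 0.04. The EGCG effect itself differed between depots for 4 of 7 members on D4, against 28.1%, and for 4 of 7 on D8, against 39.2%. It differed between days for 4 of 7 in WAT, against 49.4%, and 4 of 7 in BAT, against 55.4%. The day effect of the controls differed between depots for 2 of 7, against 40.0%. 

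Of the depot calls not described above, Alpl was 9.15-fold lower in BAT than in WAT with EGCG on D8 (log2 difference -1.10 ± 0.168, adjusted p = 0.000391). That BAT mean rested on 11 and 31 reads, and in replicate 3 Alpl had 0.390 FPKM in BAT and 1.37 in WAT. Slc6a8 was 1.27-fold lower in BAT with EGCG on D4 (-0.34 ± 0.0534, adjusted p = 0.000296). On D8 Atp2a1 was 1.50-fold higher in BAT controls (adjusted p = 0.0109, and 0.0893 or 0.0898 without replicate 1 of either group) and 1.42-fold lower in BAT with EGCG (adjusted p = 0.0354, with replicate 3 in the other direction, adjusted p 0.0588 to 0.186 without 1 library, and 0.0581 to 0.102 in 3 alternative fits). Ckb was 1.22-fold higher in BAT controls (adjusted p = 0.0471), a call lost in 4 alternative fits (adjusted p 0.0593 to 0.219) and without 1 of 3 libraries, WAT replicate 2 or either BAT replicate (0.0554 to 0.278).

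Among the other genes of the creatine and phosphagen pathway, a list of 26 genes of which 21 were tested, the counts of higher and lower calls with EGCG were 5 and 11 in WAT on D4, 11 and 4 in WAT on D8, 5 and 8 in BAT on D4, and 7 and 11 in BAT on D8. The shares of all tested genes called higher and lower were 34.4% and 19.3%, 44.7% and 18.9%, 27.9% and 20.6%, and 46.5% and 26.1% in the same order. The median log2 change of the list was -0.15, 0.18, -0.01 and -0.17 in the same order, against 0.09, 0.17, 0.03 and 0.17 over all tested genes. Under median-ratio scaling the WAT D8 split became 9 and 7, against 28.6% and 28.0% of all tested genes. The BAT D8 split became 6 and 14, against 35.6% and 34.2%. The largest rise was that of Ass1, the argininosuccinate synthase on the route to arginine, which rose in every arm, from 7.97 ± 0.169 to 56.7 ± 5.39 FPKM (log2 change 2.68, adjusted p = 4.05e-08) in WAT on D4 and from 10.6 ± 2.45 to 172 ± 5.52 FPKM (log2 change 3.92, adjusted p = 3.87e-10) in BAT on D8. Ak1, the cytosolic adenylate kinase, rose from 39.9 ± 8.17 to 122 ± 3.54 FPKM (log2 change 1.60, adjusted p = 9.49e-08) in WAT and from 50.6 ± 0.730 to 165 ± 1.68 FPKM (log2 change 1.69, adjusted p = 2.54e-08) in BAT on D8.

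Among the genes that fell with EGCG in this list were a kinase and a carrier of mitochondria. Ak3, of the mitochondrial matrix, went from 114 ± 1.78 to 31.4 ± 0.176 FPKM (log2 change -1.83, adjusted p = 3.00e-09) in BAT on D8 and from 66.7 ± 11.6 to 30.9 ± 0.489 FPKM (log2 change -1.07, adjusted p = 5.72e-07) in WAT on D8. Slc25a5, an exchanger of ADP and ATP, went from 347 ± 13.3 to 203 ± 0.682 FPKM (log2 change -0.77, adjusted p = 5.01e-06) in BAT on D4. Ahcy, which clears the by-product of methylation reactions such as that of Gamt, went from 26.1 ± 1.78 to 15.1 ± 0.182 FPKM (log2 change -0.75, adjusted p = 2.09e-06) in WAT on D4. Phospho1, a phosphatase of phosphocholine, went from 2.08 ± 0.654 to 0.160 ± 0.0530 FPKM (log2 change -1.39, adjusted p = 2.86e-06) in BAT on D8. Ak4, also of the matrix, rose in WAT on D4 from 2.88 ± 0.173 to 17.3 ± 0.817 FPKM (log2 change 2.23, adjusted p = 1.25e-09) and fell in BAT on D8 from 18.2 ± 0.493 to 10.1 ± 0.819 FPKM (log2 change -0.80, adjusted p = 1.16e-06).

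The wider calcium cycling list held 37 genes, of which 34 were tested, and gave 15 higher and 5 lower calls with EGCG in WAT on D4, 14 and 7 in WAT on D8, 13 and 5 in BAT on D4, and 16 and 12 in BAT on D8, beside 34.4% higher and 19.3% lower, 44.7% and 18.9%, 27.9% and 20.6%, and 46.5% and 26.1% of all tested genes. Its medians were 0.12, 0.14, 0.14 and 0.25, against 0.09, 0.17, 0.03 and 0.17 over all tested genes. Under median-ratio scaling the WAT splits became 10 and 6 on D4 and 13 and 10 on D8. The shares of all tested genes were then 24.9% and 28.0% on D4 and 28.6% and 28.0% on D8. Itpr3 rose from 3.42 ± 0.503 to 7.57 ± 0.0313 FPKM (log2 change 0.96, adjusted p = 1.12e-05) in WAT and from 2.16 ± 0.117 to 8.41 ± 0.230 FPKM (log2 change 1.57, adjusted p = 8.90e-08) in BAT on D8. Jph2, which holds the store close to the plasma membrane, rose from 0.378 ± 0.0844 to 2.37 ± 0.501 FPKM (log2 change 1.28, adjusted p = 6.23e-07) in BAT on D4, and Cacna1c, a subunit of the L-type calcium channel, from 1.49 ± 0.0728 to 4.18 ± 0.0583 FPKM (log2 change 1.06, adjusted p = 1.38e-07) in BAT on D8.

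The lowest changes of the calcium list were those of S100a1 and Atp2a3. S100a1, a calcium sensor protein, went from 145 ± 9.86 to 16.2 ± 0.262 FPKM (log2 change -3.09, adjusted p = 3.55e-10) in BAT and from 67.8 ± 7.55 to 25.4 ± 0.792 FPKM (log2 change -1.38, adjusted p = 5.94e-07) in WAT on D8. Atp2a3, the SERCA3 pump, went from 8.00 ± 0.483 to 0.113 ± 0.00878 FPKM (log2 change -3.01, adjusted p = 5.99e-10) in BAT on D8, so that of the pumps Atp2a3 and Atp2a1 fell there and Atp2a2 rose. Slc8a1, the sodium and calcium exchanger, fell in WAT on D4 from 4.96 ± 0.0297 to 1.45 ± 0.184 FPKM (log2 change -1.29, adjusted p = 5.81e-06), as did the plasma membrane pump Atp2b4, from 1.60 ± 0.188 to 0.568 ± 0.0749 FPKM (log2 change -0.73, adjusted p = 0.000175). In BAT on D8 Slc8a1 rose from 2.196 ± 0.287 to 4.21 ± 0.396 FPKM (log2 change 0.71, adjusted p = 0.000288). Stim1, the sensor of store filling, went from 36.5 ± 9.92 to 21.4 ± 0.998 FPKM (log2 change -0.72, adjusted p = 0.000504) in WAT on D8. Sln, a regulator of SERCA pumps in muscle, rose in WAT on D4 from 3.74 ± 0.430 to 7.81 ± 0.972 FPKM (log2 change 0.89, adjusted p = 0.0123), and Casq2, a buffer of the store, from 2.59 ± 0.123 to 4.86 ± 0.642 FPKM (log2 change 0.71, adjusted p = 0.000122). In BAT on D8 Casq2 fell from 3.77 ± 0.149 to 1.69 ± 0.170 FPKM (log2 change -0.83, adjusted p = 1.30e-05). Casq1, its skeletal muscle form, went from 0.985 ± 0.268 to 0.401 ± 0.137 FPKM (log2 change -0.50, adjusted p = 0.0160) in BAT on D4. Of the 10 tested skeletal muscle markers, 8 were called higher with EGCG in WAT on D4, against 34.4% of all tested genes. In BAT 6 were called lower on D8, against 26.1%, and none was called on D4. Their part in the levels of Sln, Casq2 and Casq1 was not tested.

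**Figure D5:**
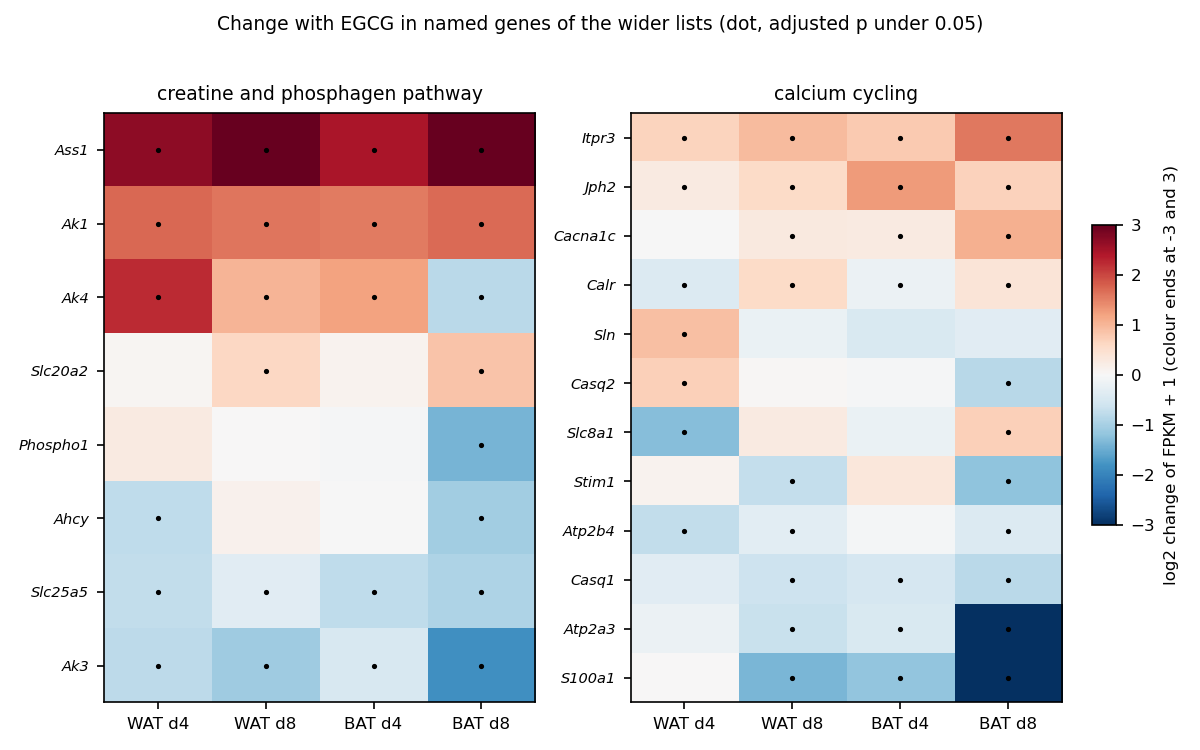
Log2 change of FPKM + 1 with EGCG against control (colour, from -3 to 3) for the genes of the creatine and phosphagen list and of the calcium cycling list that are named in the text, in the 4 arms (columns), with a dot for adjusted p under 0.05. Ass1 and Ak1 are at the top and Ak3 at the bottom of the first list, and Itpr3 is at the top and Atp2a3 and S100a1 at the bottom of the other.

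In the course of the controls from D4 to D8, the creatine list gave 6 higher and 11 lower calls in WAT and 8 and 9 in BAT (11 and 6 under median-ratio scaling), and the calcium list 12 and 14 in WAT and 18 and 10 in BAT (22 and 6). Of all tested genes 27.7% were called higher and 33.2% lower in WAT, and 28.7% and 40.4% in BAT (36.9% and 29.9% under median-ratio scaling). Ak3 rose from 26.3 ± 1.05 to 66.7 ± 11.6 FPKM (log2 change 1.30, adjusted p = 1.45e-07) in WAT and from 30.4 ± 1.75 to 114 ± 1.78 FPKM (log2 change 1.87, adjusted p = 4.26e-09) in BAT. S100a1 rose from 17.1 ± 0.823 to 67.8 ± 7.55 FPKM (log2 change 1.92, adjusted p = 5.17e-08) in WAT and from 31.0 ± 5.10 to 145 ± 9.86 FPKM (adjusted p = 8.49e-09) in BAT. Atp2a3 rose in BAT from 0.736 ± 0.270 to 8.00 ± 0.483 FPKM (log2 change 2.38, adjusted p = 6.64e-09). The phosphate transporter Slc20a2 fell from 13.8 ± 0.303 to 7.59 ± 0.0884 FPKM (log2 change -0.79, adjusted p = 6.58e-08) in WAT and from 14.2 ± 0.314 to 6.98 ± 0.192 FPKM (log2 change -0.93, adjusted p = 8.44e-09) in BAT, and Calr, the calcium buffer calreticulin, fell in BAT from 638 ± 20.2 to 401 ± 10.8 FPKM (log2 change -0.67, adjusted p = 5.94e-08).

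The genes whose log2 levels were most like those of each tested member were taken over the 16 libraries of replicates 1 and 2 among 10201 genes, with the value over the 7 libraries of replicate 3 (without EGCG-treated WAT D8 cells) beside it. Slc6a8 was most like Tnfrsf23 (Pearson r = 0.99, and 0.99 in replicate 3), Spred2 (0.99 and 0.95) and Tnfrsf26 (0.99 and 0.98). Gamt was most like Pex19 (0.96 and 0.95), Fads3 (0.96 and 0.93) and Psme1 (0.95 and 0.97), and Gatm like Cds2 (0.92 and 0.97), Hps1 (0.91 and 0.96) and Ggta1 (0.91 and 0.99). Ckb was most like Lmod1 (0.98 and 0.99), 1300014I06Rik (0.97 and 0.99) and Gatsl3 (0.96 and 0.96). Alpl was most like Zfp799 (0.97 and 0.93), Pcsk1 (0.97 and 0.99) and Fth1 (0.96 and 0.95). Atp2a2 was most like Dnajc25 (0.96 and 0.93), Gm15726 (0.95 and -0.05) and Zfyve20 (0.95 and 0.95), and Atp2a1 like the muscle genes Mylpf (0.96 and 0.96), Mybpc1 (0.96 and 0.97) and Tnnt3 (0.96 and 0.97). These points share group means and libraries, and no test was made. Among the members themselves the highest r was 0.861 for Ckb and Gatm and the lowest -0.805 for Gamt and Alpl.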

How the data were processed

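RNA of 24 libraries (8 groups of 3) was sequenced after Illumina library preparation. The submitters' processing notes name FastQC 0.11.9, HISAT2 2.2.0, HTSeq 0.11 and mm9, and strand setting is not given in the sources used here. The authors deposited FPKM in 2 separately made tables, with replicates 1 and 2 in one and replicate 3 in the other, and every column matched 1 sample. FPKM times gene length gave whole reads at a tolerance of 0.01 for 100% of values. Coordinates are those of GENCODE vM1 on NCBIM37 (mm9), counted from 1.

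Genes with FPKM of at least 1 in at least 2 of the 16 libraries of replicates 1 and 2 (14095 of 37310) were fitted as log2(FPKM + 1), 1 mean per group, with limma 3.58.1 (trend) in R 4.3.3 and 8 residual degrees of freedom (11.4 with the prior). The pseudocount understates changes of low genes. Tests were two-sided, with Benjamini-Hochberg adjustment within each of 17 contrasts. The procedure was also run on simulated reads in which a small set of genes changed in 1 group. That run does not cover changes as wide as those here or shifts of the median. In replicate 3 of EGCG-treated WAT D8 cells, values were rescaled after leaving out 5 genes. Alternatives were a pseudocount of 0.1, no filter, median-ratio scaling, quantile normalization, a replicate block, limma-voom on the recovered reads, both tables in 1 fit (with and without that library), and leaving out each library. Floors cover counting error only.

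The members and lists were chosen with earlier results of these data known. Named genes are the 9 members, the 2 highest and 2 lowest called genes of each wider list in each EGCG and each control day contrast, the 3 genes most like each tested member, and markers. Runx2 matched 2 identifiers and was left out of list counts, and some genes under this rule are not reported here. Promoters are from RefSeq (GRCm38.p6), and the table used held 7 of 9 members.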

Additional observations from a re-analysis of the deposited data

Results flagged for a closer look

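The EGCG effects of several members differed between depots or days by a test of the difference itself in limma (log2 scale, replicates 1 and 2, Benjamini-Hochberg adjustment). On D4 the EGCG effect in BAT minus that in WAT was 1.30 for Ckb (adjusted p = 0.000108), -1.63 for Alpl (0.000480), -0.64 for Atp2a1 (0.0231) and 0.53 for Atp2a2 (0.00131). On D8 it was 0.49 for Slc6a8 (0.000401), -0.99 for Alpl (0.00653), -0.85 for Atp2a1 (0.00368) and 0.35 for Atp2a2 (0.00806). In WAT the EGCG effect on D8 minus that on D4 was 0.51 for Gamt (0.0332), 0.36 for Slc6a8 (0.00199), -1.10 for Alpl (0.00269) and 0.59 for Atp2a2 (0.000236). In BAT it was -1.42 for Ckb (1.30e-05), -0.84 for Gatm (0.0108), 0.79 for Slc6a8 (5.65e-06) and 0.42 for Atp2a2 (0.00180). The course from D4 to D8 in controls, BAT minus WAT, was -1.53 for Alpl (0.000491) and 2.66 for Atp2a1 (2.61e-06). The differences of Gamt in WAT, of Atp2a1 on D4, of Alpl in WAT and of Slc6a8 in WAT were the ones whose call was lost in at least 1 alternative, as given with each gene.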

How the results depend on the processing

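Over 119 pairs of member and contrast, 78 were called. For the called pairs, the alternatives that used all tested libraries kept direction and call 597 times and lost the call, with the same direction, 27 times; leaving out 1 library did so 347 and 37 times, and neither reversed a called pair. Of the 41 pairs that were not called, the 9 in the EGCG contrasts and the control day contrasts were recomputed one by one. Their direction and lack of a call held 58 times. A call in the same direction appeared 5 times, and the direction reversed 9 times, with or without a call. With 1 library left out these counts were 30, 2 and 4. The reversals were small changes on the log2 scale and their cause was not tested. Those of Slc6a8 in BAT controls in the fits of both tables were also called. Ckb with EGCG in WAT on D8 was -0.082 after median-ratio scaling, -0.059 after quantile normalization and -0.037 in a fit of both tables without replicate 3 of EGCG-treated WAT D8 cells. Atp2a1 with EGCG in WAT on D8 was -0.047 in the fit of both tables. Gatm with EGCG in BAT on D8 was -0.11 after median-ratio scaling and ran from -0.15 to 0.22 when 1 library was left out. Slc6a8 from D4 to D8 in BAT controls was 0.11 after median-ratio scaling, 0.053 after quantile normalization, 0.16 in the fit of both tables (adjusted p = 0.0183) and 0.16 without replicate 3 of EGCG-treated WAT D8 cells (adjusted p = 0.0221). In WAT controls it ran from -0.038 to 0.080 when 1 library was left out. The number of members called between depots on D8 (5 in controls, 4 with EGCG) fell to between 3 and 4 in controls and to 2 with EGCG when 1 library was left out. The direction of the EGCG effect in replicate 3 matched in 21 of 28 pairs as deposited and 25 after rescaling.

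No pairing of the libraries by replicate number was detected, although weak correlations cannot exclude shared isolations. Over 28 pairs of groups the difference of replicate 1 and replicate 2 correlated at -0.12 to 0.15, with 3 pairs over 0.1, and the labels name no shared batch. With a replicate block Atp2a1 in WAT on D8 became a call (0.29, adjusted p = 0.0402), so that 5 members were called there, and Ckb between depots in D8 controls was lost (0.28, adjusted p = 0.0593), leaving 4. Over all 119 pairs the block changed no other call. Ckmt2 and Ryr2, with at most 11 reads in a library, were not fitted.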
